A study of Mus musculus with 2 samples.

Results

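The genes described are 9 of the 52636 genes in each of 2 count tables: the aldehyde dehydrogenases Aldh3a1, Aldh3a2, Aldh1a1, Aldh1a2 and Aldh1a3, the cellular retinoic acid binding proteins Crabp1 and Crabp2, the retinoic acid receptor Rarb, and the retinoic acid hydroxylase Cyp26b1. They were taken by gene name from both tables, and the names were chosen by the levels and ratios already seen in these libraries, so the values below describe the genes and test nothing. All 9 had 50 or more counts in the higher library, the minimum for a log2 ratio here. RNA-seq was run on 1 library labelled miR-29a KO, from C57BL/6 mice lacking the microRNA miR-29a, and on 1 library labelled WT, from C57BL/6 wild-type mice. Per the labels, both groups were 8 weeks old and each library came from the pooled retinas of 3 mice. The sources used here do not say how miR-29a was deleted. With 1 library a group there is no replicate check, and every difference below is between these 2 libraries, not between genotypes.

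Retinoic acid is made from vitamin A in a pair of steps: retinol dehydrogenases turn retinol into retinaldehyde, and the retinaldehyde dehydrogenases of the ALDH1A family turn retinaldehyde into retinoic acid. CRABP proteins carry retinoic acid in the cytosol, RAR and RXR receptors bind DNA as pairs and switch genes on in its presence, and CYP26 enzymes degrade it. In the embryonic mouse eye, Aldh1a1 marks the dorsal and Aldh1a3 the ventral retina, and Aldh1a2 is expressed in the mesenchyme around the eye. ALDH3 enzymes act on other aldehydes, among them products of lipid peroxidation and fatty aldehydes, and ALDH3A1 is one of the most abundant soluble proteins of the mouse cornea.

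The library labelled KO held 24876925 counts over 19545 genes and the library labelled WT 26805902 counts over 19346 genes. The defining markers of retina were at or near 0. The 10 rod and cone markers summed to 1.33 CPM (counts scaled to the library's total) in the library labelled KO and 1.60 in the library labelled WT, with 5 and 4 of them at 0, while 10 fibroblast markers summed to 8920 and 7737 CPM. The 12 markers of other retinal neurons summed to 51.8 and 48.2 CPM, mostly from Rbpms and Slc6a9, and 6 of them, among them Grm6, Lhx1, Calb1, Gad1 and Pou4f2, had 0 counts in both libraries. The 10 Mueller glia markers summed to 5354 and 4694 CPM, of which Vim, which fibroblasts also express, made up 4381 and 3677 CPM. Glul and Sox9 were also present in that list, while Aqp4 had 0 counts in both libraries and Rlbp1 had 11 and 24. The corneal and surface epithelium list, for which Aldh3a1 is often used, summed without it to 1.25 and 0.522 CPM over 10 genes, with 5 and 7 at 0. Of its defining markers, Krt12, the keratin of corneal epithelium, had 0 counts in both libraries, which allows up to 0.121 CPM in the library labelled KO and 0.112 CPM in the library labelled WT. Kera, the keratocan gene of corneal stroma, had 1 count in each library. Its list summed to 3660 and 2171 CPM, mostly through Dcn, Lum and Thbd, which fibroblasts or other cells also express. Angptl7 of that list had 1664 counts in the library labelled KO and 1786 in the library labelled WT, and B3gnt7 had 11 and 8. The meningeal and arachnoid list summed to 310 and 616 CPM, mostly from Igf2. Foxc1 (1295 and 1817 counts), Foxc2 (1127 and 1230), Nnat, Bnc2 and Tbx18 of that list also passed the minimum, while Zic1 and Slc22a6 had 0 counts in both libraries. Macrophage markers summed to 541 and 149 CPM, and each of the 9 past the count minimum was at least 2-fold higher in the library labelled KO. Endothelial markers summed to 138 and 129 CPM, with 5 of 9 higher by 2-fold and 0 lower. That list was split, with 6 above 0 and 3 below 0, and Eng, its most counted gene, had a log2 ratio of -0.19. Its median log2 ratio was 1.21, and -0.22 with a minimum of 200 counts. The part of these differences in the ratios of the 9 genes was not tested, and in bulk RNA fewer cells of a type and less RNA per cell cannot be told apart. Xist had 0 counts in the library labelled KO and 4288 in the library labelled WT, and the Y-linked gene Ddx3y 376 and 67. So the pools also differed in sex-linked transcripts, and in every ratio a difference in sex makeup cannot be told apart from the label. The libraries are therefore called by their labels. Mir29a had 0 counts in both, but libraries of this kind rarely capture so short a precursor, so the value checks neither label.

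**Figure D1:**
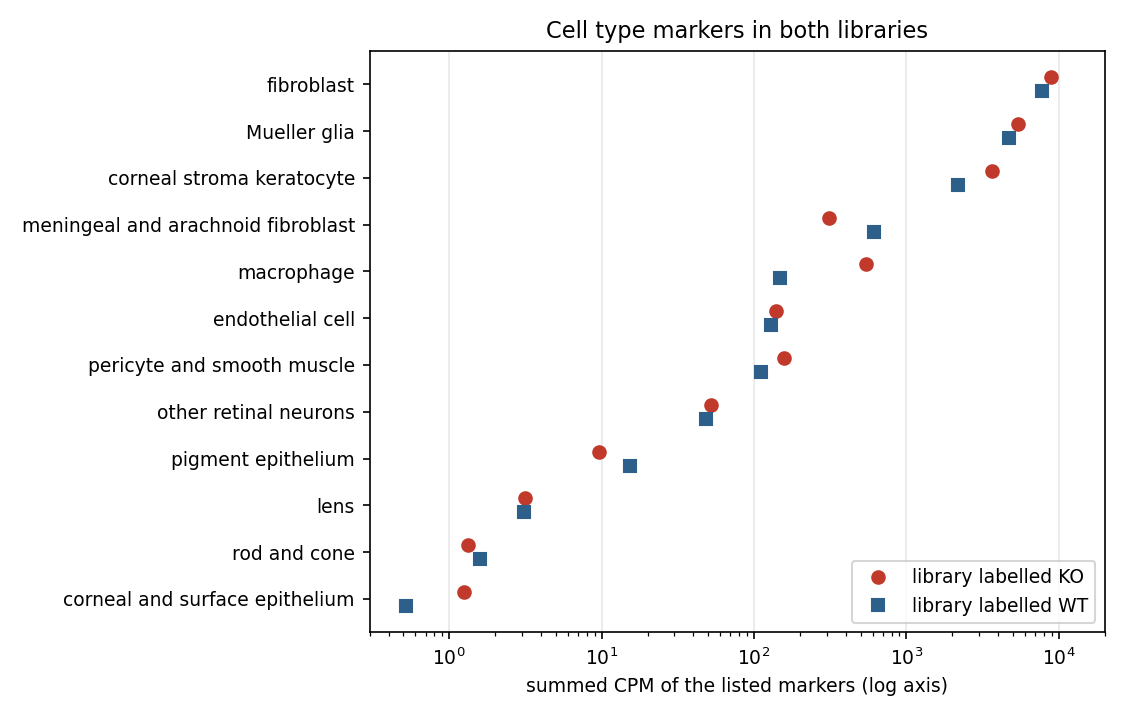
Summed CPM on a log axis of the markers in each of 12 cell type lists, with circles for the library labelled KO and squares for the library labelled WT, 1 library each. Fibroblast markers sum to 8920 and 7737 CPM, while rod and cone markers sum to 1.33 and 1.60 CPM.

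The deleted microRNA is shown first, since it is the difference the labels name. RefSeq (GRCm38.p6) places miR-29a-3p on the minus strand of chromosome 6, at chr6:31062673-31062694. Its family members miR-29b-3p and miR-29c-3p carry the same seed. Capitals mark the seed, bases 2 to 8, which pairs with TGGTGCT in a target:
miR-29a-3p: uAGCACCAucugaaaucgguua
miR-29b-3p: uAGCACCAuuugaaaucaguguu
miR-29c-3p: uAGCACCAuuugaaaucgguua

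Of the 9 genes, Rarb and Cyp26b1 hold the heptamer TGGTGCT in their longest annotated 3' UTR, 1 copy each, and the other 7 hold none. The heptamer is in the 3' UTR of 16.1% of the 11585 protein-coding genes past the count minimum that were searched. The site of Rarb lies at chr14:16431694-16431723 (GRCm38, minus strand), at base 363 of a 3' UTR of 1232 bases, and that of Cyp26b1 at chr6:84571557-84571586 (minus strand), at base 2696 of 2853. Neither is followed by the A that makes the stronger 8-base site. Capitals mark the heptamer:
Rarb: ttctatactgtatgtTGGTGCTttcttttg
Cyp26b1: cgttttggtatgagcTGGTGCTgtgtgtgt

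Levels are compared between genes in FPKM (fragments scaled to transcript length and library depth), as the authors deposited them, because counts grow with transcript length. The genes spanned a 2402-fold range in the library labelled KO and a 4324-fold range in the library labelled WT. Crabp1 was highest, at 1128 FPKM in the library labelled KO and 924 in the library labelled WT, which ranked 32 and 57 among all genes. Aldh3a1 followed at 405 and 259 FPKM (ranks 161 and 273), and Crabp2 at 112 and 113 FPKM (ranks 584 and 601). These 3 stood well above the rest. Aldh3a2 had 19.1 and 12.2 FPKM, Aldh1a2 8.92 and 5.26, and Cyp26b1 4.04 and 4.36. At the low end, Aldh1a1 had 2.69 and 1.52 FPKM, Rarb 0.676 and 1.33, and Aldh1a3 0.470 and 0.214. The order of the 9 was the same in both libraries. Neighbours whose 95% counting intervals overlapped were Rarb and Aldh1a3 in the library labelled KO, and Aldh1a2 and Cyp26b1, and Aldh1a1 and Rarb, in the library labelled WT. The intervals reflect counting error alone, as the reads carried no molecular identifiers and copies of 1 molecule cannot be told apart.

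**Figure D2:**
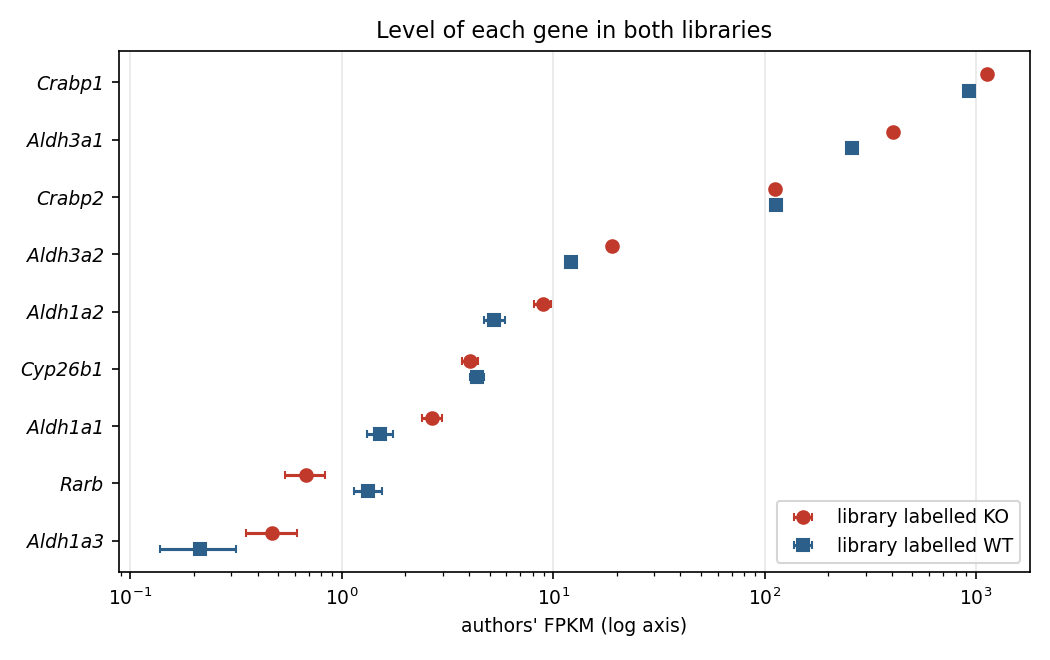
FPKM of the 9 genes on a log axis, with circles for the library labelled KO, squares for the library labelled WT and bars for the 95% counting interval, 1 library each. The order runs from Crabp1 (1128 and 924 FPKM) down to Aldh1a3 (0.470 and 0.214 FPKM), and the 5 Aldh genes have the circle to the right of the square.

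Aldh3a1 and Aldh3a2 encode the aldehyde dehydrogenases that act on medium-chain and aromatic aldehydes and on long-chain fatty aldehydes. Aldh3a1 (ENSMUSG00000019102, chromosome 11, 61207537 to 61218421, plus strand, GRCm38) had 19212 counts in the library labelled KO and 12759 in the library labelled WT, or 772 and 476 CPM. That is 1.62-fold higher in the library labelled KO, with a 95% exact (Clopper-Pearson) counting interval of 1.59 to 1.66. Aldh3a2 (ENSMUSG00000010025, 61223417 to 61267464, minus strand) lies 4996 bp from Aldh3a1 and faces it tail to tail. It had 2619 and 1738 counts, or 105 and 64.8 CPM, 1.62-fold higher in the library labelled KO (1.53 to 1.73). The level of Aldh3a1 over that of Aldh3a2 was 21.2 in both libraries, so without a correction the neighbours differed between the libraries by the same factor. After a correction for transcript GC content and length, the log2 ratios were 0.76 for Aldh3a1 and 0.50 for Aldh3a2. Usp22, the protein-coding gene on the other side of Aldh3a1, had 2238 and 2321 counts and a log2 ratio of 0.05.

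The promoter of Aldh3a2 is shown because genes of the aryl hydrocarbon receptor battery are described below. It is the RefSeq window of 250 bases before and 50 after the start site, chr11:61267137-61267436 (GRCm38.p6, minus strand). GCGTG, the core bound by the aryl hydrocarbon receptor, is in capitals and begins at base -117 from the start site:
Aldh3a2: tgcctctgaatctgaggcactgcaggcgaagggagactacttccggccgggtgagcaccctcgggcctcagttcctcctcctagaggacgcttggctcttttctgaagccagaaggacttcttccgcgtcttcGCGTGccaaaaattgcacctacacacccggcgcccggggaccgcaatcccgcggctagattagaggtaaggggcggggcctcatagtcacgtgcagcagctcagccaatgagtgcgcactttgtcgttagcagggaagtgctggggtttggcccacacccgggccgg
The core GCGTG, searched on both strands, is in 32.4% of the 32851 promoters of this length, so its presence is common. Among the 9 genes it is also in the promoters of Aldh1a2, Crabp1 and Rarb, so not only in those of Aldh genes. In Rarb, which was lower in the library labelled KO, it lies on the other strand and is not marked below. The presence of the core says nothing of binding. The promoter table held 6 of the 9 genes, and Aldh3a1, Aldh1a3 and Crabp2 were not among them.

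The 3 retinaldehyde dehydrogenases were all higher in the library labelled KO. Aldh1a2 (ENSMUSG00000013584, chromosome 9, 71215789 to 71296243, plus strand) had 494 counts in the library labelled KO and 302 in the library labelled WT, 1.76-fold higher (1.52 to 2.04). Aldh1a1 (ENSMUSG00000053279, chromosome 19, 20492715 to 20643465, plus strand) had 324 and 190 counts, 1.84-fold higher (1.53 to 2.21). Aldh1a3 (ENSMUSG00000015134, chromosome 7, 66390890 to 66427517, minus strand) had 53 and 25 counts, 2.28-fold higher with the widest interval (1.39 to 3.84). With 0.5 CPM added to each library, which draws low genes toward 0, its log2 ratio was 0.88. Their FPKM summed to 12.1 in the library labelled KO and 7.0 in the library labelled WT. Aldh1a2 made up 73.9% and 75.2% of that sum, Aldh1a1 22.2% and 21.7%, and Aldh1a3 3.89% and 3.05%, so the makeup of the family was alike while its sum was higher. Aldh1a1 and Aldh1a3, which mark dorsal and ventral retina in the embryonic eye, were thus the smaller share, and Aldh1a2 the larger. Those domains are embryonic, the mice were 8 weeks old, and the cells of origin were not tested. Of the 50-base words in Aldh1a1 transcripts, 3.06% also occur in Aldh1a7, its neighbour and near copy in rodents, so a small part of its reads is uncertain.

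The Aldh1a2 promoter, chr9:71215539-71215838 (GRCm38.p6, plus strand), is shown as that of the most abundant retinaldehyde dehydrogenase. Capitals mark GCGTG, which begins at base -128 from the start site, and the antioxidant response core TGACNNNGC, which begins at base -112 and does not overlap it:
Aldh1a2: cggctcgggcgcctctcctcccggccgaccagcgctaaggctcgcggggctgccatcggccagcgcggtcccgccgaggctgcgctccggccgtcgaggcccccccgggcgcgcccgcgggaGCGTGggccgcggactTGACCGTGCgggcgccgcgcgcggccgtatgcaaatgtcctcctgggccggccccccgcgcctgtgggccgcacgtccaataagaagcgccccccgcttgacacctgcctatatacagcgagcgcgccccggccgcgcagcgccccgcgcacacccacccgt
The antioxidant response core is in 12.4% of all promoters, searched on both strands.

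The binding proteins had smaller folds than the Aldh genes before the correction for GC content and length, but not all did after it. Crabp1 (ENSMUSG00000032291, chromosome 9, 54764748 to 54773110, plus strand), whose protein buffers retinoic acid in the cytosol and delivers it for breakdown, had 22114 counts in the library labelled KO and 18776 in the library labelled WT. It was 1.27-fold higher in the library labelled KO (1.24 to 1.29). With the correction its log2 ratio was 0.59, above the 0.50 of Aldh3a2 and level with the 0.59 of Aldh1a1. Crabp2 (ENSMUSG00000004885, chromosome 3, 87948666 to 87953376, plus strand), whose protein delivers retinoic acid to RAR receptors in the nucleus, had 3622 and 3785 counts. Its fold was 1.03 with an interval of 0.985 to 1.08, which includes 1. The level of Crabp1 over that of Crabp2 was 10.1 in the library labelled KO and 8.18 in the library labelled WT.

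Rarb (ENSMUSG00000017491, chromosome 14, 16430839 to 16819156, minus strand) encodes the receptor RAR-beta and is itself a classical target of retinoic acid. It had 87 counts in the library labelled KO and 178 in the library labelled WT, 1.90-fold lower in the library labelled KO (1.46 to 2.48). Among the 9 genes it alone had an interval wholly below its level in the library labelled WT. Rarb runs tail to tail with Top2b, a DNA topoisomerase gene on the other strand, and 34.1% of its exon bases (1793 of 5265) are exons of Top2b too, the miR-29 site among them. The kit did not mark strand, Top2b had 1386 and 1233 counts, and the sources used here do not say how reads in the shared stretch were assigned. The count of Rarb is therefore uncertain.

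The Rarb promoter, chr14:16575427-16575726 (GRCm38.p6, minus strand), is shown because it holds a retinoic acid response element of the direct repeat type with a spacer of 5 bases. Capitals mark the match to GTTCA, any 5 bases and AGTTCA, which begins at base -52 from the start site:
Rarb: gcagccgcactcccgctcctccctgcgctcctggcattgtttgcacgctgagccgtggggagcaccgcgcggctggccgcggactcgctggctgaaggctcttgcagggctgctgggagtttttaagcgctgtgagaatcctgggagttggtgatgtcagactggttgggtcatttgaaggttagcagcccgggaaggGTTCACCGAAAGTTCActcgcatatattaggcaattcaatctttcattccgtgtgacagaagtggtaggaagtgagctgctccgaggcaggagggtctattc
Of 32851 promoters, 11 (0.0335%) hold this motif on either strand, and its second part is also a match to the receptor hexamer AGTTCA. Among the 6 genes of the set with a promoter sequence, Rarb alone matched these letters. The letters searched are those of the Rarb element itself outside its spacer, so the match of Rarb is no finding. No looser form of the repeat was searched, and the share holds for this spelling alone.

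Cyp26b1 (ENSMUSG00000063415, chromosome 6, 84571414 to 84593908, minus strand), which encodes the hydroxylase that clears retinoic acid, had 528 counts in the library labelled KO and 592 in the library labelled WT. Its fold was 0.961 (0.853 to 1.08), which includes 1. The summed level of the 3 Aldh1a genes over that of Cyp26b1 was 2.99 in the library labelled KO and 1.60 in the library labelled WT. Cyp26a1, the relative that retinoic acid induces most readily, had 0 counts in both libraries, and Cyp26c1 had 2 and 6, so Cyp26b1 made up nearly all of the family's counts.

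**Figure D3:**
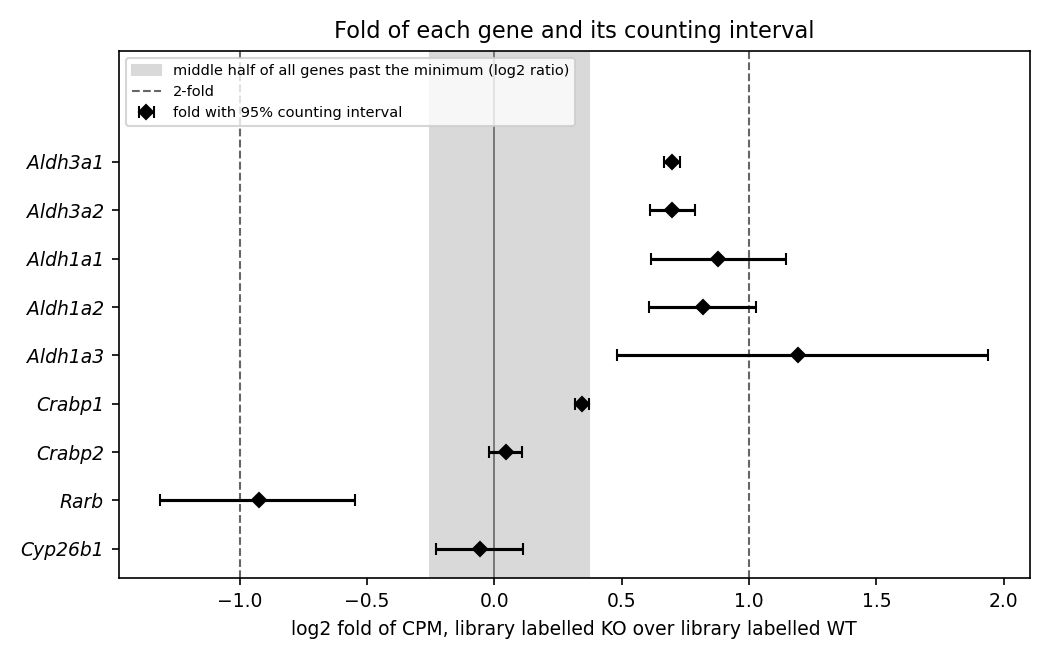
Log2 fold of CPM for the 9 genes, library labelled KO over library labelled WT (diamonds), with 95% counting intervals as bars, the interquartile range of the log2 ratio of all genes past the minimum as a grey band and 2-fold as dashed lines. The intervals of the 5 Aldh genes overlap one another to the right of 0, Crabp2 and Cyp26b1 span 0, and Rarb lies to the left.

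With 0.5 CPM added, 0 of the 9 genes were at least 2-fold higher in the library labelled KO, against 4.47% of all 12382 genes past the minimum, and 0 were lower by 2-fold, against 2.82%. At 1.5-fold, 5 of the 9 were higher, against 13.3% of all genes, and 1 was lower, against 8.88%. The 5 were the Aldh genes and the 1 was Rarb. These contrasts chose the genes, so nothing is read from the counts. The median log2 ratio was 0.70 over the 9 genes and 0.06 over all genes, whose interquartile range ran from -0.25 to 0.37. The counting intervals of the 5 Aldh folds all held values from 1.59 to 1.66. Before the GC and length correction none overlapped that of a binding protein, of Rarb or of Cyp26b1. After it Crabp1 passed 1.5-fold and Aldh3a2 did not, so that separation rests on the uncorrected ratios, by which the genes were also chosen.

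The other aldehyde dehydrogenase genes were listed as 16. Of the 12 past the minimum, 0 were higher and 0 lower by 2-fold, 3 had a log2 ratio above 0 and 9 below, and the median was -0.11. Aldh2, the mitochondrial enzyme that clears acetaldehyde, was the most abundant of them, with 18504 counts in the library labelled KO and 21179 in the library labelled WT and a log2 ratio of -0.09. Aldh7a1, which acts in lysine breakdown, had a log2 ratio of -0.19, and Aldh9a1, an enzyme of carnitine synthesis, -0.03. Aldh1a7, chosen after its values were seen, had 75 and 34 counts and the highest log2 ratio of the list, 0.99.

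Genes of retinol oxidation and storage gave 12 of 18 past the minimum, with 0 higher and 0 lower by 2-fold and a median log2 ratio of 0.12. The list was split, with 7 above 0 and 5 below 0, and its log2 ratios ran from -0.78 to 0.68. Adh5, the widely expressed class III alcohol dehydrogenase, had a log2 ratio of 0.22. Dhrs3, which turns retinaldehyde back into retinol, had 1159 counts in the library labelled KO and 1088 in the library labelled WT (log2 ratio 0.20), and Dgat1, an acyltransferase that can esterify retinol, had 850 and 1342 (-0.54). Rdh10, the main retinol dehydrogenase of retinoic acid synthesis in mouse embryos, was looked up for its role after the values were seen and had 633 and 505 counts (0.42). Lrat, the enzyme of retinyl ester storage, had 0 counts in both libraries.

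Of 10 genes of retinoid transport, 4 passed the minimum, with 1 higher and 1 lower by 2-fold, and the median log2 ratio was -0.26, which ran from -0.32 to 0.12 over the alternatives. Fabp5, a fatty acid binding protein that can also carry retinoic acid, had 2056 counts in the library labelled KO and 1027 in the library labelled WT, 2.16-fold higher (2.00 to 2.33). Ttr, the carrier of retinol binding protein in blood and a pigment epithelium marker, had 9 and 89 counts, 9.18-fold lower in the library labelled KO (4.62 to 20.7). Rbp4, the secreted retinol binding protein, had 638 and 630 counts and a log2 ratio of 0.12. In the pigment epithelium list 3 of 10 genes passed the minimum. Ttr and Tyr were lower by 2-fold, and Rdh5 had a log2 ratio of -0.15. The list median of -1.37 ran from -1.71 to -0.24 over the alternatives. Rpe65, which defines that tissue, had 0 counts in both libraries.

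Among the 6 listed receptors 5 passed the minimum and 0 passed 2-fold in either direction. The median log2 ratio was -0.20, which ran from -0.26 to 0.07 over the alternatives. The list includes Ppard, which is neither an RAR nor an RXR gene. Ppard was the 1 gene of the 5 above 0 (log2 ratio 0.11), and 4 were below. Rarg had 5590 counts in the library labelled KO and 7821 in the library labelled WT (log2 ratio -0.38), Rxra 3512 and 3971 (-0.07), and Rxrb 2260 and 3665 (-0.59). At 55.6 and 75.1 FPKM, Rarg stood far above Rarb (0.676 and 1.33 FPKM). All 6 coregulators passed the minimum, with 0 past 2-fold and a median of 0.15: the corepressor Ncor1 had a log2 ratio of 0.20 and the coactivator Ncoa3 0.13.

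Genes known to be induced by retinoic acid were listed apart. Of 14, which leave out the 9 genes above, 9 passed the minimum, with 0 higher and 1 lower by 2-fold. There were 3 above 0 and 6 below 0. The median log2 ratio was -0.25, which ran from -0.32 to -0.11 over the alternatives. The gene lower by 2-fold was Rarres2, which encodes the chemoattractant chemerin, with 379 counts in the library labelled KO and 1701 in the library labelled WT, 4.17-fold lower (3.72 to 4.67). The transglutaminase Tgm2 had 2847 and 3312 counts and a log2 ratio of -0.11.

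**Figure D4:**
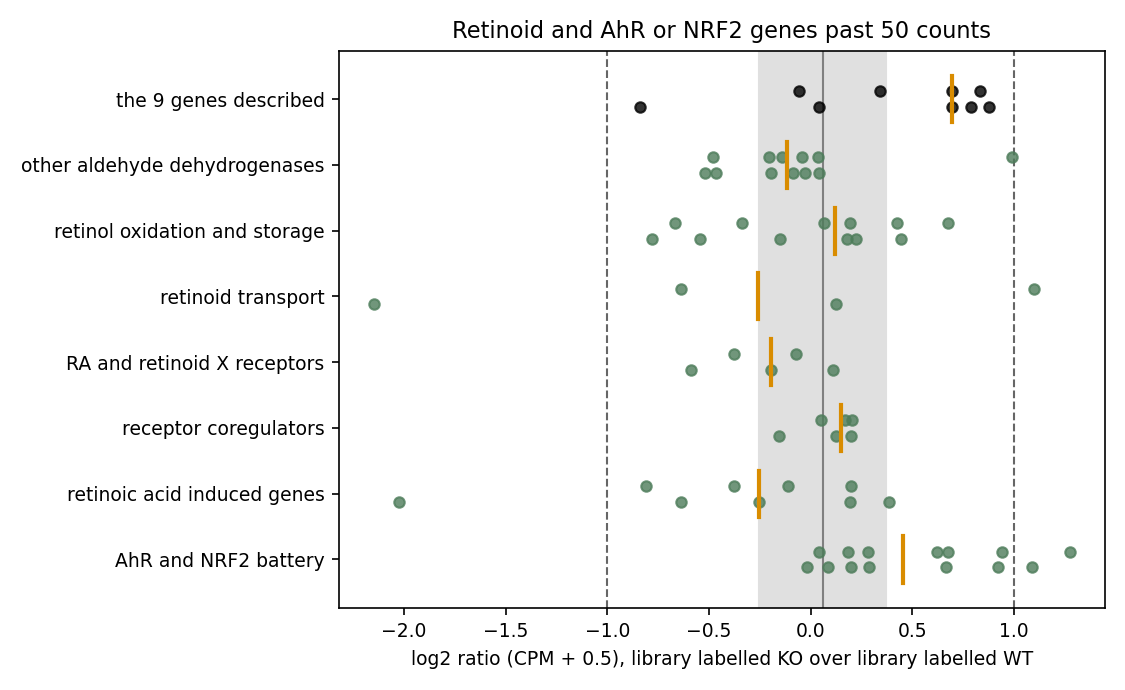
Log2 ratio (library labelled KO over library labelled WT, with 0.5 CPM added) of each gene past 50 counts in the 9 genes described and in 7 lists, with list medians as vertical bars, the interquartile range and the median of all genes in grey and 2-fold as dashed lines. The median is 0.70 for the 9 genes, 0.46 for the aryl hydrocarbon receptor (AhR) and NRF2 battery and -0.25 for the retinoic acid induced genes.

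Aldh3a1 belongs to a set of detoxifying genes that the aryl hydrocarbon receptor and the oxidative stress factor NRF2 are known to induce. Other genes tied to these factors were listed, among them the genes of the regulators, Ahr, Arnt and Nfe2l2. Of 15, 14 passed the minimum, with 2 higher and 0 lower by 2-fold, and 13 above 0 and 1 below 0. The median log2 ratio was 0.46, against 0.06 over all genes. That median ran from 0.28, with the GC and length correction, to 0.62 over the alternatives. Slc7a11, the cystine importer, had 2590 counts in the library labelled KO and 1144 in the library labelled WT, 2.44-fold higher (2.27 to 2.62). Gclc, the catalytic subunit of glutathione synthesis, had 7394 and 3736 counts, 2.13-fold higher (2.05 to 2.22). Nfe2l2, which encodes NRF2 itself, had a log2 ratio of 0.92, the heme oxygenase Hmox1 0.04 and the sulfiredoxin Srxn1 0.18. The genes of the list tied to the aryl hydrocarbon receptor were named after their values were seen. The receptor gene Ahr had a log2 ratio of 0.67 and its partner Arnt 0.20. Of the receptor's known targets, Nqo1, which NRF2 also induces, had a log2 ratio of 0.94, Tiparp 0.68, Cyp1b1 0.62, Ahrr 0.29 and Cyp1a1 -0.02, and Cyp1a2 had 0 counts in both libraries. The lists were written with earlier results of these libraries known, so their counts are not independent evidence of a direction.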

How the data were processed

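RNA was sequenced from 1 library labelled miR-29a KO and 1 labelled WT. Per the labels' protocols, rRNA was depleted with Ribo-Zero before a NEBNext Ultra kit was used. The deposited counts were whole numbers per gene and were used as they stood, per the file headers. The deposited FPKM, per the file headers, were used to compare levels between genes and as an alternative. HISAT2 and GRCm38 (mm10) are named in the submitters' processing notes; for the counter, annotation and strand setting: not given in the sources used here.

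Counts were divided by their total (CPM), and the log2 ratio was taken after adding 0.5. A gene needed at least 50 counts in 1 library; 4 whose ratio of count to FPKM differed between tables by over 1% were left out. Genes were counted at 2-fold, with no p-value. Folds without addition carry 95% exact intervals, and a count of 0 allows 3 counts. Of 52636 genes, 52403 matched GENCODE M21 (GRCm38); promoters and microRNAs came from RefSeq. Heptamers were searched in the longest 3' UTR of each gene. Named genes were the 9 genes, and in each pathway list every gene past 2-fold and the 3 with the highest mean CPM, some of which are not reported here; marker lists are given by counts, sums and defining genes. The 9 genes and the lists were chosen with earlier results of these data known. The alternatives were other scalings (edgeR's TMM factors, median of ratios, a reduced total), pseudocounts, minimums and thresholds. Further ones were the authors' FPKM with 0.5 FPKM added, a GC and length correction and any annotated 3' UTR. The interval and the ratio were tested on simulated counts with counting error alone, so that test covers no variation between mice or libraries. The tools were edgeR 4.0.16 in R 4.3.3, and scipy 1.17.1, pandas 2.3.3, numpy 2.4.6 and matplotlib 3.10.9 in Python 3.11.15.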

Additional observations from a re-analysis of the deposited data

How the results depend on the processing

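The 5 Aldh genes and Crabp1 were above 0 and Rarb below 0 in every alternative that gave a value. Log2 ratios ran from 0.63 to 0.76 for Aldh3a1, 0.50 to 0.70 for Aldh3a2, 0.59 to 0.87 for Aldh1a1, 0.71 to 0.81 for Aldh1a2, 0.44 to 1.11 for Aldh1a3, 0.28 to 0.59 for Crabp1 and -1.04 to -0.64 for Rarb. Crabp2 (-0.02 to 0.05) and Cyp26b1 (-0.12 to 0.11) took both signs. With a pseudocount of 0.1 CPM, 1 of the 9 genes, Aldh1a3, was higher by 2-fold, and with the GC and length correction 1, Rarb, was lower; across genes the log2 ratio fell with transcript GC content (Spearman's rho of -0.44). Against 554 genes higher and 349 lower by 2-fold, there were 351 and 214 with a pseudocount of 2 CPM. A minimum of 200 counts, which drops genes, gave 340 and 213. The authors' FPKM with 0.5 FPKM added, which draws genes of low FPKM toward 0, gave 322 and 288. The ends of 0.44 for Aldh1a3 and -0.64 for Rarb came from that setting. Of the genes past 2-fold, 61.4% were higher, against 52.8% by the authors' FPKM, 54.5% with median-of-ratios factors (476 and 397 genes) and 55.3% with the GC and length correction. The wider threshold of 1.5-fold gave 1645 and 1100 (5 and 1 of the 9 genes), and 4-fold gave 103 and 58. Other causes were not tested. The heptamer count stayed at 2 of 9 with any annotated 3' UTR. Aldh1a3 and Rarb, with 53 and 87 counts in the library labelled KO, did not reach the minimum of 200 counts. Low counts limit both, shared exons limit Rarb, and 1 library a group limits every value. No paired analysis was possible because each group had 1 library.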

Other observations

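The nearest protein-coding genes past the minimum on either side of the 9, without overlap, had log2 ratios from -0.41 to 0.99, apart from the 9 genes themselves. On chromosome 19, Aldh1a7, 49488 bp from Aldh1a1, had 75 counts in the library labelled KO and 34 in the library labelled WT (0.99). Anxa1, the annexin gene on the other side of Aldh1a1, had 12314 counts in the library labelled KO and 8751 in the library labelled WT, a log2 ratio of 0.60. On chromosome 9, Ireb2, which encodes an iron-responsive RNA-binding protein and lies next to Crabp1, had 838 and 525 counts (0.77), while Wdr61 on its other side had 1249 and 1194 (0.17). Beside Aldh1a3, Lrrk1 had 1568 and 2248 counts (-0.41) and Asb7 262 and 273 (0.05). On either side of Rarb, Ngly1, 118913 bp away, had a log2 ratio of 0.17. The thyroid hormone receptor gene Thrb, 841105 bp away, had 0.08. Top2b, which overlaps Rarb and so was not taken as a neighbour, had 0.27. Around Cyp26b1, Exoc6b had 0.29 and Dysf 0.30, and around Crabp2, Nes had -0.12 and Isg20l2 0.23.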
